A study of Rattus norvegicus with 6 samples.

Results

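The genes described here encode the chaperones, folding enzymes, degradation factors, translocon parts and stress sensors of the endoplasmic reticulum (ER). They are 35 rat genes listed by name for their function, with earlier results of these data known. Array probes were matched to them by mRNA accession, and where a gene had several probes the one with the highest mean signal stood for it. Of the 35 genes, 30 had a matched probe and all 30 were bright enough to be tested, out of 10001 protein-coding genes tested in all. No probe was matched to Ern1, Manf, Pdia3, Edem1 or Derl2, which are not analysed here. By role, 4 of 5 sensors and transcription factors, 18 of 20 folding genes, 6 of 8 degradation genes and both translocon genes were tested. RNA came from H9c2 cells, a line derived from embryonic rat heart that is much used as a cardiac muscle model. The hypoxia/reoxygenation (H/R) group had 3 samples of cells that were held without serum and glucose, first for 1 h under 1% O2, 5% CO2 and 94% N2 and then for 3 h at normal oxygen. The control group had 3 samples of normoxic H9c2 cells, and the labels do not give the medium of these cells during the experiment. Oxygen, serum and glucose therefore cannot be told apart as the difference between the groups. One protocol field speaks of mouse cortex tissue, against the cell line given by all other labels.

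Proteins that enter the ER are folded by HSP70 and HSP90 type chaperones, lectins, disulfide bond enzymes and prolyl isomerases, and those that fail to fold are taken back to the cytosol and destroyed, a route called ER-associated degradation. When unfolded proteins build up, the sensors IRE1 (gene Ern1), PERK (gene Eif2ak3) and ATF6 start the unfolded protein response. ATF6 and the spliced product of Xbp1 then switch on chaperone and degradation genes, many through a promoter element named ERSE. PERK slows translation and raises the transcription factors ATF4 and CHOP. In heart muscle this response is known from ischaemia and reperfusion.

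The arrays were Agilent 1-colour arrays, and each value is the fluorescence of a probe. Signals are given as multiples of the 75th percentile of all probes on the same array, and changes as H/R minus control on the log2 scale. Replicates 2 and 3 of a group carried the same slide position and differed by scan. Their probes differed by a median of 0.0203 (H/R) and 0.0204 (control) on the log2 scale, against 0.118 to 0.136 for other pairs within a group. They were treated as 1 array, so n = 2 arrays in each group. The labels name no separate cultures, so p-values cover the spread of these arrays alone, and that spread may be technical. Between 58.4% and 71.1% of 42136 spots per file were well above background and 0 were saturated. As a check of the label, 17 of 18 matched myoblast and muscle markers were well above background in all 6 files, Des, Myog, Myod1, Actc1 and Tnnt2 among them. Of 12 leukocyte markers Ptprc, Itgam and Adgre1 were not well above background in any file, nor were the endothelial markers Pecam1 and Cdh5. However, 7 of the 12 leukocyte markers were well above background in all 6 files, among them Csf1r, Cd68 and Cd14. The other matched endothelial marker, Tek, was so too, and it rose by 1.11 ± 0.13 (adjusted p = 0.00848). The summed signal of the leukocyte list was 1.71 to 1.73 in H/R files and 1.49 to 1.62 in control files, with Cd74 as the 1 member of 8 tested that changed. Its part in the results below was not tested. Since these are bulk RNA values, a small shift in all cells and a larger one in some of them cannot be told apart.

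After H/R 4 of the 30 genes passed the test. Herpud1, which encodes a membrane protein that helps to assemble the degradation machinery, rose 1.48-fold. The sensor gene Atf6 fell to 0.623 of its control level, Creld2, the gene of a small ER protein, to 0.676 and the chaperone gene Hyou1 to 0.734. Neither Hspa5, the ER HSP70 (BiP) and the usual marker of the unfolded protein response, nor Hsp90b1, the ER HSP90 (GRP94), passed the test. With limma and an adjusted p below 0.05 over 15899 probes, 1 of 30 members was higher, or 3.33%, against 16.2% of all protein-coding genes tested. At the same threshold 3 of 30 were lower, or 10.0%, against a background of 9.62%. The share of members called lower was thus near that of all genes, and the share called higher lay below it. At an unadjusted p under 0.05 there were 12 members, and 41.9% of all genes passed at that level. The median change was -0.17 over the members and 0.07 over all protein-coding genes tested. No member differed by more than 2-fold, as 7% of all genes did, and the median size of the change regardless of sign was 0.230 for members and 0.268 for all genes.

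With each array's median as the base of scaling, the median over all probes was -0.06 in place of 0.07. The calls over all probes were then 1566 higher and 2253 lower, in place of 2358 higher and 1411 lower, and among the members 1 was higher and 6 were lower. Changes are stated relative to the 75th percentile throughout. For 19 of the 26 members that did not pass, the 95% interval of the change lay inside 1.5-fold in both directions, and for 24 of 26 its upper end lay below a 1.5-fold rise. These 24 include Canx and Ero1a, which have dim probes. Their changes turned to 0.65 and 0.80 after another background correction (normexp), so the bound does not hold for them under that setting.

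**Figure D1:**
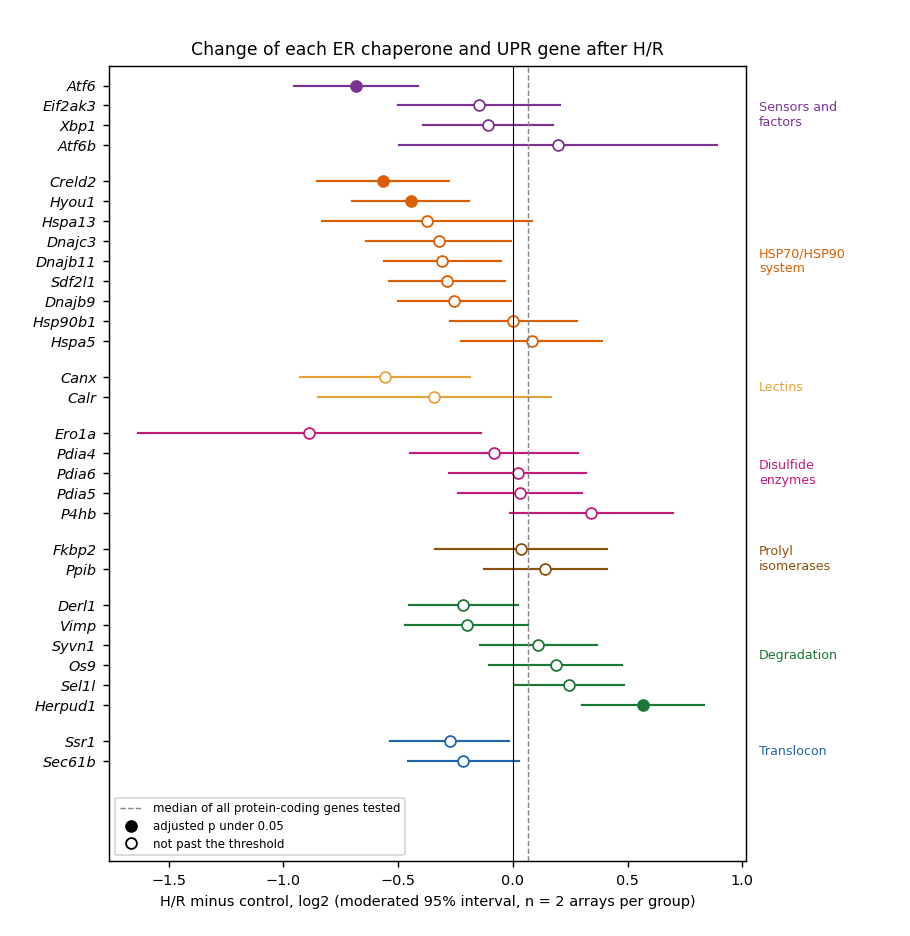
Change of the 30 tested members (x axis, H/R minus control on the log2 scale, with moderated 95% intervals, n = 2 arrays per group), ordered by role. Filled points passed an adjusted p of 0.05: Atf6 (-0.68), Creld2 (-0.56) and Hyou1 (-0.45) to the left and Herpud1 (0.57) to the right.

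In 5 of 30 members every H/R file lay above every control file (16.7%, against 38.2% of all genes tested), and in 14 every H/R file lay below (46.7%, against 27.9%). Of the 6 degradation genes 4 had all H/R files above. Of the 9 genes of the HSP70 and HSP90 systems and their listed partners 0 did, and 7 had all H/R files below. Medians were -0.13 for the sensors, -0.27 for the folding genes, 0.15 for the degradation genes and -0.24 for the translocon genes. With median scaling the degradation genes had a median of 0.021 and the sensors one of -0.26, so 0.15 is not read as an upward shift of the degradation genes. The differences between these roles were not tested.

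**Figure D2:**
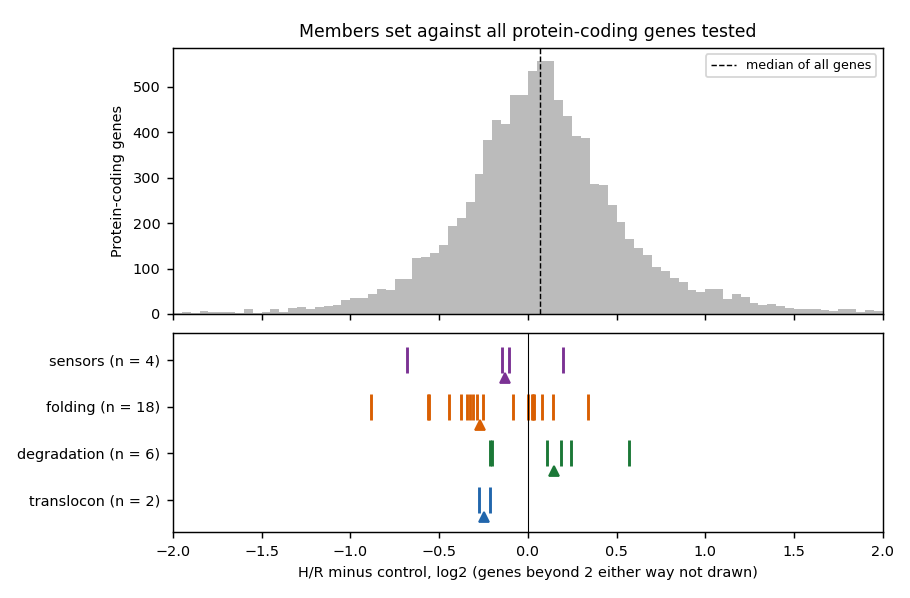
Upper panel: number of protein-coding genes (y axis) by change after H/R (x axis, log2), of 10001 tested, 98 of them beyond the axis; the dashed line marks their median of 0.07. Lower panel: each member as a tick, by role, with its median as a triangle (-0.13 for sensors, -0.27 for folding, 0.15 for degradation, -0.24 for translocon).

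The promoters are shown because ERSE is the element through which this response is known to act. Members were listed by function and not by sequence. That list takes in known targets of the response, so the share of members with a motif is not independent of the choice. Windows from RefSeq (build GRCr8), 250 bases before to 50 after the start site, were at hand for 27 of the 35 members. None was at hand for Ern1, Atf6, Manf, Pdia3, Pdia6, Ero1a, Derl1 or Os9. These windows were searched on both strands for ERSE (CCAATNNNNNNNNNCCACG), for ERSE-II (ATTGG, any 1 base, then CCACG) and for UPRE (TGACGTGG). Of 33469 windows 22 held ERSE (0.0657%), 17 held ERSE-II (0.0508%) and 199 held UPRE (0.595%). ERSE was present in 7 members, ERSE-II in 3 and UPRE in 1, which makes 10 members with any motif, and 237 windows (0.708%) held any. A match is a description of the letters and not a bound site. The 8 ERSE matches of the 7 members, read in the direction of the motif with its fixed letters in capitals, were as follows.
Hspa5: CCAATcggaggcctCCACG
Hsp90b1: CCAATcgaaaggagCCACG
Hsp90b1: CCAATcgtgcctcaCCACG
Xbp1: CCAATcgcagacggCCACG
Dnajc3: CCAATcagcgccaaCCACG
Calr: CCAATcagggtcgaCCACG
Canx: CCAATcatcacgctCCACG
Creld2: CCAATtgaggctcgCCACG
The ERSE-II matches, with the fixed letters in capitals, were these.
Herpud1: ATTGGgCCACG
Dnajb11: ATTGGcCCACG
Hyou1: ATTGGcCCACG
Hyou1: ATTGGgCCACG

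The 250 bases before the start site are given for the member that rose, for Creld2 and Hyou1, which fell, and for Hspa5, with motif matches in capitals. In Hyou1 the upstream ERSE-II overlaps the UPRE, so the first run of capitals joins both.
Herpud1, chr19:10614708-10614957, minus strand: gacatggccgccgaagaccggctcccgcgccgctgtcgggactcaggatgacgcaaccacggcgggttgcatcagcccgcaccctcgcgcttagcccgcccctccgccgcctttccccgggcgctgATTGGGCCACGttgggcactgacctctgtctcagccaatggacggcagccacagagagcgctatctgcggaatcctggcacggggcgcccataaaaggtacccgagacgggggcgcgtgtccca
Creld2, chr7:121789134-121789383, plus strand: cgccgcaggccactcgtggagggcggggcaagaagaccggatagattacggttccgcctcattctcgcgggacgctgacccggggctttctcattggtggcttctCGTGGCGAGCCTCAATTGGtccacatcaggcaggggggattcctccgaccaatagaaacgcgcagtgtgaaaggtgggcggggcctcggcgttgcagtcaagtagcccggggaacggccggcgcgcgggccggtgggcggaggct
Hyou1, chr8:53602632-53602881, plus strand: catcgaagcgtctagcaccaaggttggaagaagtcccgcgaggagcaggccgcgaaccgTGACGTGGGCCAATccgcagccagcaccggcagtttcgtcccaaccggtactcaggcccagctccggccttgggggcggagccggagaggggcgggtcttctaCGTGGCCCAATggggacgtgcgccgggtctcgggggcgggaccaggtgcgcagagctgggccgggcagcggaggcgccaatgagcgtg
Hspa5, chr3:38452766-38453015, plus strand: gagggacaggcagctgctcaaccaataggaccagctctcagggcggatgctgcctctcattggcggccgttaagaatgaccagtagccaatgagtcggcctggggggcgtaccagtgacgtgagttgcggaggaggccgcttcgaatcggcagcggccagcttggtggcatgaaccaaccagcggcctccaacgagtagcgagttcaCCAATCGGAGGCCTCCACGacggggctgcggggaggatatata
The ERSE of Hspa5 ends 25 bases before the start site, that of Creld2, on the other strand, 127 bases before it, and the ERSE-II of Herpud1 114 bases before it. The table lists another start site of Hyou1 too, and its window held none of the motifs.

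**Figure D3:**
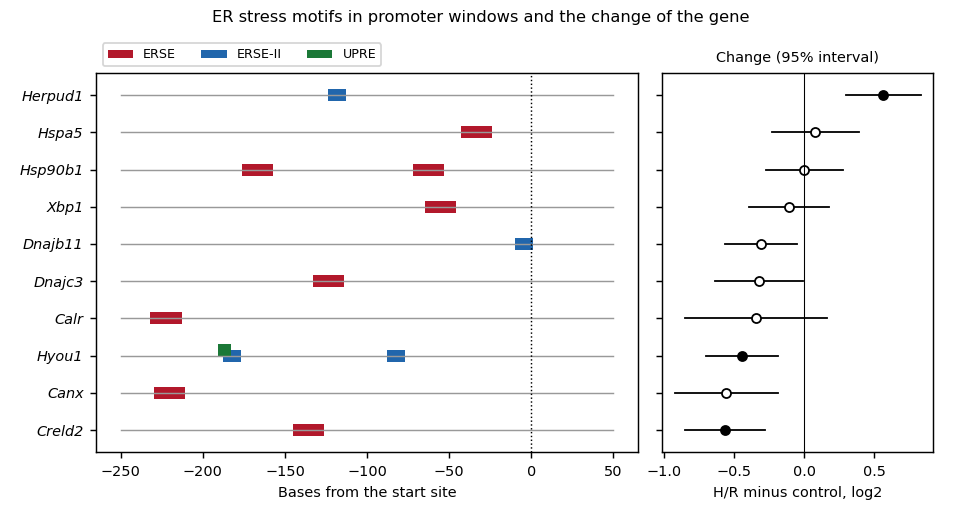
Left: positions of ERSE, ERSE-II and UPRE matches (coloured boxes) in the windows of the 10 members that hold one (x axis, bases from the start site). Right: change of the same gene after H/R (x axis, log2, 95% interval, filled where the adjusted p was under 0.05), from Herpud1 at 0.57 down to Creld2 at -0.56.

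Of the 10 members with an ERSE or ERSE-II, Herpud1 rose, Creld2 and Hyou1 fell and 7 did not pass, with a median of -0.32. Such counts are too small to set against the shares over all genes tested, 16.2% higher and 9.62% lower, and nothing is read from them. Among the 15 tested members whose window held none of the 3 motifs 0 rose and 0 fell, and the median was -0.08. Atf6, which fell, and the other tested members without a window stand in neither group. Another 28 genes outside the members held ERSE or ERSE-II, of which 11 were tested. Of these 0 rose and 1 fell, the median was -0.01, and the one that fell was Cdc45, a replication gene (-1.16 ± 0.11, adjusted p = 0.00514). The difference between members with and without a motif was not tested.

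Among the degradation genes, the signal of Herpud1 was 14.1, 14.5 and 14.8 in H/R replicates 1 to 3, against 9.19, 10.1 and 10.3 in control replicates 1 to 3. All H/R files lay above all control files, and the change was 0.57 ± 0.10 (moderated SE, n = 2 arrays per group, adjusted p = 0.0221, 95% interval of the fold 1.23 to 1.78). Sel1l, which encodes the adaptor of the ubiquitin ligase HRD1, gave 4.07, 3.89 and 3.91 in H/R files and 3.33, 3.36 and 3.42 in control files. Its files did not overlap either, but the change of 0.24 ± 0.09 did not pass (adjusted p = 0.119). Syvn1, the gene of HRD1 itself, differed by 0.11 and Os9, a lectin that hands misfolded glycoproteins to HRD1, by 0.19 (adjusted p = 0.445 and 0.275). In both of them the H/R files lay above the control files by less than in Herpud1. Derl1, which encodes a channel protein of the same route, had signals of 6.286, 5.996 and 6.102 in H/R files, against 7.130, 7.159 and 7.212 in control files. With a change of -0.22 ± 0.09 it did not pass (adjusted p = 0.152), nor did Vimp (now Selenos), which recruits the p97 ATPase to the membrane (-0.20, adjusted p = 0.217). The rise of Herpud1 was 0.49 to 0.64 when 1 array was left out. It stayed past the threshold without control array 2 (adjusted p = 0.0402), and not without control array 1 (0.0733), H/R array 1 (0.0956) or H/R array 2 (0.115).

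Of the sensors, Atf6 had signals of 0.3398, 0.3045 and 0.3065 in H/R replicates 1 to 3, against 0.5282, 0.5004 and 0.5115 in control replicates 1 to 3. The groups were apart and the fall was the largest among the members that passed, -0.68 ± 0.10 (adjusted p = 0.0146, 95% interval of the fold 0.517 to 0.751). Its relative Atf6b, which encodes another membrane-bound factor cut by the same proteases, gave 0.521, 0.509 and 0.522 in H/R files and 0.593, 0.340 and 0.348 in control files. There the 2 control arrays lay on either side of the H/R files, and the change of 0.20 ± 0.27 did not pass (adjusted p = 0.613). It was 0.59 without control array 1 and -0.19 without control array 2. Eif2ak3, the gene of PERK, had 0.9244, 1.106 and 1.094 in H/R files and 1.041, 1.198 and 1.198 in control files, groups that overlapped (-0.15 ± 0.14, adjusted p = 0.463). Xbp1 gave 5.14, 4.71 and 4.66 in H/R files, against 5.04, 5.53 and 5.59 in control files. Its change was -0.11 ± 0.11 (adjusted p = 0.499), with a 95% interval of the fold from 0.762 to 1.13. The arrays give the amount of Xbp1 mRNA by 1 probe and say nothing of its splicing, nor of the cleavage of ATF6 or the phosphorylation of PERK. The fall of Atf6 was -0.76 to -0.61 with 1 array left out. It stayed past the threshold without control array 2 (adjusted p = 0.0410) and not without control array 1 (0.0550), H/R array 1 (0.0570) or H/R array 2 (0.0858).

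**Figure D4:**
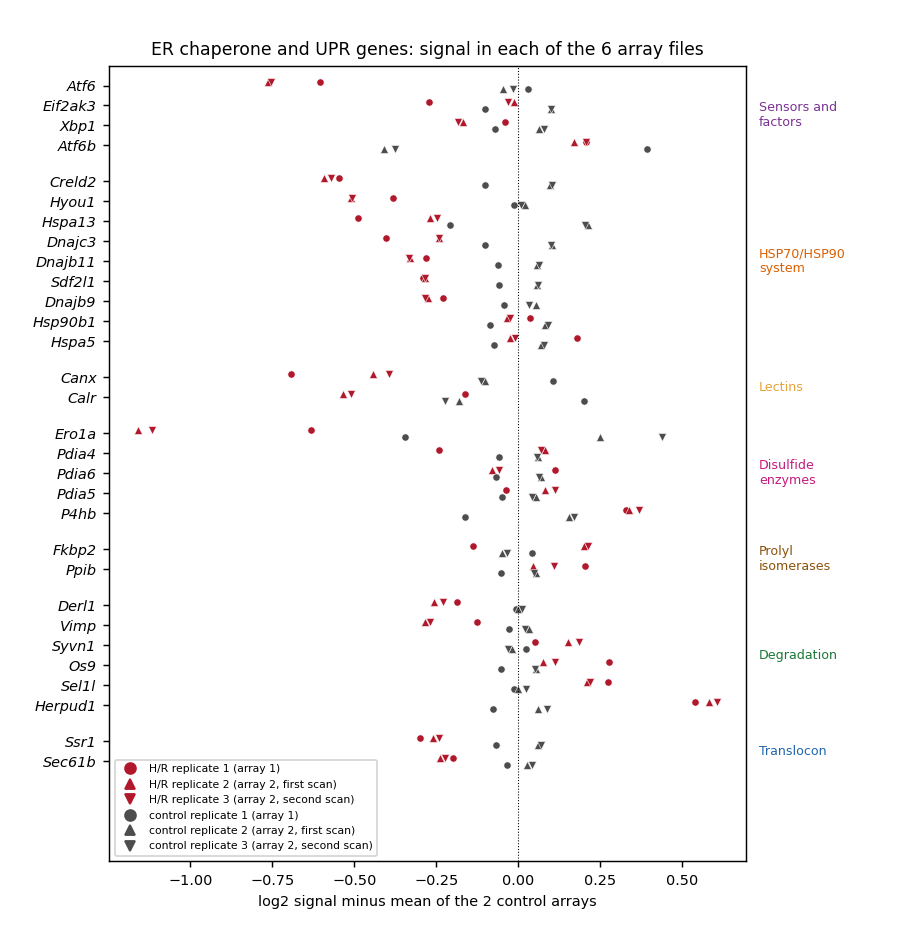
Signal of each tested member in each file (x axis, log2 signal minus the mean of the 2 control arrays), H/R in red and control in grey; circles are replicate 1 and triangles the 2 scans that make up array 2. H/R files lie right of all control files for 5 members, among them Herpud1, and left of them for 14, among them Atf6, Creld2 and Hyou1.

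Within the HSP70 and HSP90 systems and their listed partners 0 of 9 tested genes rose and 2 fell. Over all genes tested 16.2% rose and 9.62% fell, and nothing is read from so small a count. Hspa5 had signals of 31.4, 27.3 and 27.6 in H/R replicates 1 to 3, against 26.4, 29.1 and 29.3 in control replicates 1 to 3. H/R array 1 lay above all control files and H/R array 2 between the control arrays, so the groups overlapped. Its change was 0.08 ± 0.12 (adjusted p = 0.642), and the 95% interval of the fold ran from 0.854 to 1.31. Hsp90b1 gave 33.8, 32.2 and 32.4 in H/R files and 31.1, 34.9 and 35.1 in control files, a change of 0.00 ± 0.11 with an interval of the fold from 0.826 to 1.21 (adjusted p = 0.990).

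Hyou1, which encodes the large ER HSP70 (GRP170) that helps BiP to exchange nucleotide, had 3.75, 3.42 and 3.43 in H/R files, against 4.83, 4.95 and 4.91 in control files. It fell by 0.45 ± 0.10 (adjusted p = 0.0352), and its other, dimmer probe did not pass at -0.33 ± 0.09 (adjusted p = 0.0661). Creld2, a small ER protein with epidermal growth factor-like domains that is known as a target of the stress response, had 8.15, 7.91 and 8.02 in H/R files. In control files it had 11.1, 12.8 and 12.8, and the fall was 0.56 ± 0.11 (adjusted p = 0.0262). For both genes all H/R files lay below all control files. Leaving out 1 array gave changes of -0.66 to -0.46 for Creld2, which passed without control array 1 (adjusted p = 0.0428) and not without control array 2 (0.0676), H/R array 1 (0.109) or H/R array 2 (0.126). For Hyou1 they were -0.51 to -0.38, with adjusted p of 0.0964 without control array 1, 0.0915 without control array 2, 0.104 without H/R array 1 and 0.172 without H/R array 2.

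Sdf2l1, Hspa13 and the genes of J proteins, which bring substrates to HSP70 chaperones, did not pass. Dnajb11 (ERdj3) had 8.83, 8.54 and 8.53 in H/R files, against 10.3, 11.2 and 11.2 in control files (-0.31 ± 0.10, adjusted p = 0.0849). Sdf2l1, the partner of ERdj3, had 2.76, 2.77 and 2.77 in H/R files and 3.23, 3.51 and 3.52 in control files (-0.29 ± 0.10, adjusted p = 0.0948). Dnajc3 (P58IPK), Dnajb9 (ERdj4) and the HSP70-like gene Hspa13 differed by -0.32, -0.25 and -0.37 (adjusted p = 0.121, 0.118 and 0.186). For these 5 genes all H/R files were below all control files, as for 27.9% of all genes tested. Of the J protein genes outside the members, Dnajc10 differed by 0.08 and Dnajb12 by -0.04, each with overlapping groups (adjusted p = 0.649 and 0.855).

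Neither lectin chaperone passed. Calr, which encodes the soluble lectin and calcium store calreticulin, had 10.3, 7.95 and 8.10 in H/R files, against 13.3, 10.2 and 9.87 in control files, with overlap (-0.34 ± 0.20, adjusted p = 0.254). In both groups array 1 was the brighter one. Canx, the gene of the membrane-bound lectin calnexin, had a dim probe, with 0.0270, 0.0321 and 0.0332 in H/R files and 0.0470, 0.0407 and 0.0403 in control files. Its change of -0.56 ± 0.14 just missed the threshold (adjusted p = 0.0509), passed under 6 of 16 other settings, and turned to 0.65 after another background correction (normexp).

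Of 5 disulfide bond enzymes 0 passed. So small a set is not compared with the shares over all genes tested, 16.2% higher and 9.62% lower. P4hb, the gene of protein disulfide isomerase, had 17.5, 17.6 and 18.0 in H/R files, against 12.5, 15.5 and 15.7 in control files. All H/R files lay above, and the change of 0.34 ± 0.14 did not pass (adjusted p = 0.137). It was 0.18 without control array 1, the lower of the control arrays. Pdia4, Pdia5 and Pdia6, further isomerases of the family, differed by -0.08, 0.03 and 0.02, each with overlapping groups (adjusted p = 0.691, 0.850 and 0.907). The interval of the fold for Pdia6 ran from 0.825 to 1.25. Ero1a, which encodes the oxidase that recharges protein disulfide isomerase, is also known as a gene induced by hypoxia. Its probe was very dim, with 0.0115, 0.00802 and 0.00826 in H/R files and 0.0141, 0.0213 and 0.0243 in control files. The change of -0.89 ± 0.29 did not pass (adjusted p = 0.0868) and turned to 0.80 after normexp correction, so no direction is given for it.

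The prolyl isomerase genes Ppib (cyclophilin B) and Fkbp2 differed by 0.14 and 0.03 with overlapping groups (adjusted p = 0.359 and 0.875). A second probe of Fkbp2 did not pass either, at -0.21 (adjusted p = 0.242). Of the translocon genes, Sec61b, a subunit of the channel through which proteins enter the ER, had 16.94, 16.47 and 16.66 in H/R files, against 18.98, 19.83 and 20.03 in control files. Ssr1, which encodes a protein of the translocon-associated complex, had 14.9, 15.3 and 15.6 in H/R files and 17.6, 19.2 and 19.3 in control files. Both were lower in all H/R files and neither passed (-0.22 ± 0.09 and -0.27 ± 0.10, adjusted p = 0.157 and 0.112).

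Of 117 further genes of the pathway that were tested, 5 rose and 2 fell, and the median was -0.01, against the background of 16.2% higher and 9.62% lower. With median scaling the balance turned, to 2 higher and 8 lower with a median of -0.14. Among 14 relatives of the sensors and regulators of their signalling 2 rose and 0 fell. Ddit3, the gene of CHOP, had 3.26, 2.14 and 2.12 in H/R files, against 1.15, 1.45 and 1.45 in control files (1.03 ± 0.24, adjusted p = 0.0402). H/R array 1 was the highest. The change was 0.72 without it (adjusted p = 0.106), and it was past the threshold without H/R array 2 (0.0426) but not without control array 1 (0.131) or control array 2 (0.0622). Trib3, a pseudokinase gene induced by CHOP, had 0.599, 0.507 and 0.515 in H/R files and 0.400, 0.325 and 0.331 in control files (0.61 ± 0.15, adjusted p = 0.0433). With 1 array left out it passed in 0 of 4 fits, with adjusted p between 0.0533 and 0.167. Wfs1, which encodes a membrane protein of the ER, missed the threshold at -0.61 ± 0.20 (adjusted p = 0.0848). Other genes of the PERK branch did not pass and lay on either side of 0. Atf4 differed by 0.23 (adjusted p = 0.345). Ppp1r15a, which encodes a phosphatase subunit that reverses the action of PERK, had 2.278, 2.276 and 2.265 in H/R files, against 2.675, 2.723 and 2.661 in control files (-0.24 ± 0.09, adjusted p = 0.119). Its relative Ppp1r15b differed by -0.14 (adjusted p = 0.401).

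Of 4 tested transcripts that are known from mouse cells to be cut by activated IRE1, 3 rose and 0 fell, and the median change was 0.55, where 16.2% of all genes tested rose and 9.62% fell. A set of 4 is too small to set against these shares. Scara3, a scavenger receptor-like gene, had 11.9, 10.7 and 10.7 in H/R files, against 7.23, 7.85 and 7.89 in control files (0.58 ± 0.11, adjusted p = 0.0234). Pdgfrb, a growth factor receptor gene, rose by 0.51 ± 0.11 (adjusted p = 0.0338) and Pmp22, a membrane protein gene with a dim probe, by 0.81 ± 0.11 (adjusted p = 0.0121). Bloc1s1, the most widely used readout of this decay, did not pass at 0.17 ± 0.12 (adjusted p = 0.332). With 1 array left out, Scara3 passed in 1 of 4 fits, Pdgfrb in 0 and Pmp22 in 3.

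Of 16 further translocon and signal peptide genes 0 rose and 1 fell, where 16.2% of all genes tested rose and 9.62% fell. That gene was Sec11c, a catalytic subunit of signal peptidase, with 2.38, 2.28 and 2.34 in H/R files, against 3.02, 3.30 and 3.36 in control files (-0.43 ± 0.10, adjusted p = 0.0397). Tram1 and Sec63 missed it at -0.49 and 0.27 (adjusted p = 0.0797 and 0.137). Of 9 genes of glycoprotein quality control 0 rose and 1 fell. Such counts are too small to set against those shares. Mcfd2, the partner of the cargo receptor ERGIC-53, had 8.18, 7.77 and 7.65 in H/R files and 11.8, 11.7 and 11.6 in control files (-0.56 ± 0.09, adjusted p = 0.0183). Its receptor gene Lman1 differed by -0.41 and Clgn by 0.16 (adjusted p = 0.139 and 0.303). Sec11c and Mcfd2 passed in none of the 4 fits that left out 1 array, with adjusted p of 0.0690 to 0.174 and 0.0518 to 0.106.

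In the other lists no gene passed. Of all genes tested, 41.9% had an unadjusted p under 0.05, so counts at that level are not read as signs of change. Among 16 further degradation genes the smallest adjusted p were those of Aup1 (-0.34, 0.0559), Nploc4 (-0.33, 0.0612) and Get4 (-0.30, 0.152), and 2 of the 16 had an unadjusted p under 0.05. Among 15 J proteins, isomerases and related genes they were those of Sil1 (0.71, 0.0555), which encodes a nucleotide exchange factor of BiP, Fkbp7 (0.37, 0.0984) and Cnpy2 (0.40, 0.160), with 2 at an unadjusted p under 0.05. Among 11 further disulfide bond enzymes they were those of Erp44 (-0.32, 0.0806), Qsox1 (0.43, 0.0832) and Tmx2 (-0.33, 0.115), with 3 at that level. Of 7 oligosaccharyltransferase genes, which attach the first sugars to new proteins, Ostc, Tusc3 and Stt3a differed by -0.36, -0.25 and -0.24 (adjusted p = 0.108, 0.109 and 0.221), with 2 at that level. Of 14 genes of retrieval receptors and the COPII coat, Tmed2, Sec24a and Tmed9 differed by -0.31, -0.25 and -0.23 (adjusted p = 0.104, 0.132 and 0.211), with 1 at that level. Of 11 calcium store genes, Rcn2, Itpr1 and Stim2 differed by -0.23, 0.21 and 0.24 (adjusted p = 0.136, 0.166 and 0.247), with 0 at that level.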

How the data were processed

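Spot intensity was read from the deposited Agilent scanner files, which hold background-subtracted and processed signals made with Feature Extraction 11.0.1.1, per the file headers. RNA was freed of rRNA, copied from random primers and labelled with Cy3, per the labels' protocols. Spots of a probe were averaged after control spots and spots marked as outliers were left out, and log2 signals were set relative to each array's 75th percentile. Both scans of array 2 were averaged. A probe was tested where it was well above background in all files of at least 1 group, and 15899 of 24578 usable probes were. H/R and control were compared with limma 3.58.1 (R 4.3.3, lmFit and eBayes, 2 residual and 2.86 prior degrees of freedom), with Benjamini-Hochberg adjustment over these probes. Errors are moderated standard errors. Probe accessions were named through the RefSeq table of rat genes, which paired 14274 of 15323 coding probes with a gene. Promoter sequences are RefSeq's (GRCr8), and the array design rests on another build, so no probe coordinates are given. The authors also deposited a log2 table of 16841 probes, whose columns correlated with the scanner values at 0.9999 or more and had medians of 9.182 to 9.187. Its scaling method is not stated by the labels, and it served as an alternative. The arrays' small number limits precision. Members and gene lists were chosen with earlier results of these data known. Named are all members, and of each further list the 3 genes with the smallest adjusted p and any gene in a count of 5 or fewer, while Atf4, Ppp1r15a, Ppp1r15b, Dnajc10 and Dnajb12 were named after their values were seen. Alternatives covered scaling, background, filter, scans, replicates left out, the replicate block, the variance trend and the mean over probes.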

Additional observations from a re-analysis of the deposited data

How the results depend on the processing

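With 2 arrays per group, the calls rest on few values. Atf6, Creld2, Hyou1 and Herpud1 kept their sign under all 16 alternatives and passed under 11, 11, 10 and 11 of them. Their adjusted p ranged from 0.00026 to 0.474 for Atf6, 0.000733 to 0.305 for Creld2, 0.000707 to 0.334 for Hyou1 and 0.000604 to 0.428 for Herpud1. With normexp background correction, chosen after seeing the data because the files hold no mean signal for the planned version, which was not run, 0 probes were called, 2044 had an unadjusted p under 0.05, and 0 members were higher or lower (3 at that unadjusted level). Medians were then -0.17 for sensors, -0.15 for folding and 0.015 for degradation genes, and of the further pathway genes 0 were higher and 0 lower. With no filter on dim probes 594 of 24578 probes were called, against 3769, and 0 members and 0 further genes in each direction, with 5 members at an unadjusted p under 0.05. Treating the 6 files as separate samples, which counts both scans of an array, gave 8309 probes, 3 members higher and 14 lower (folding 1 and 9, degradation 2 and 2), and 12 further genes higher and 29 lower. Under median scaling 6 members were lower, 5 of them folding genes, with medians of -0.30 for members, -0.26 for sensors, -0.40 for folding and 0.021 for degradation genes. Of the further genes 2 were then higher and 8 lower, with a median of -0.14. Quantile scaling and the authors' deposited log2 table each gave 3 further genes higher. A trend of the variance on mean signal gave 5 members lower, 4 of them folding genes, and 8 further genes higher and 8 lower. With 1 array left out, and the lone array taken to vary like those of the other group, called probes numbered 1008 to 2702. Members then counted 0 to 1 higher and 0 to 1 lower, sensors 0 to 1 lower, folding genes 0 to 1 lower, degradation genes 0 to 1 higher, and further genes 1 to 3 higher and 0 to 1 lower. Medians over these fits ran from -0.20 to -0.17 for members, -0.21 to -0.10 for sensors, -0.25 to -0.19 for folding genes, 0.13 to 0.16 for degradation genes and -0.044 to 0.035 for further genes.

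Replicate numbers are shared between the groups, but the labels tie them to no common culture or day. Array 1's deviations correlated between groups with r = 0.153 over 15899 probes, and with 2 pairs the numbers were not taken to pair the samples. With the replicate block 3886 probes were called, 1 member was higher and 3 were lower. Among the members that did not pass, the sign turned under at least 1 alternative for 11, among them Hsp90b1 (8 alternatives), Pdia6 (7), Hspa5 (2), Canx and Ero1a (1 each). Dim probes limit what can be said of Canx and Ero1a.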
